A study of Mus musculus with 8 samples.

Results

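The genes described here encode the proteins of the cytosolic ribosome. They were taken from the gene table as every protein-coding row whose name begins with Rpl or Rps and a digit, together with Rplp0, Rplp1, Rplp2 and Rpsa, leaving out the S6 kinase genes and names marked as pseudogenes. The rule found 86 of 54532 rows, 52 with large subunit names and 34 with small subunit names. One of them, Rps19bp1, is matched by its name but encodes a protein that binds RPS19 and is not itself a ribosomal protein, and Rps27rt is a retrogene copy of Rps27. Rpl3l, Rpl7l1, Rpl10l, Rpl22l1, Rpl36al, Rpl39l and Rps27l are paralogues of the core genes. The cells were cardiac fibroblasts of the mouse, sorted by their surface PDGFRα, from hearts 7 days after a coronary artery was occluded. Poly(A) RNA was sequenced in 4 samples labelled FTbR2KO, which stands for loss of the TGF-β type 2 receptor gene (Tgfbr2, called TbR2 in the labels) in fibroblasts, and in 4 samples labelled TbR2fl/fl, the controls that carry the floxed gene. Tamoxifen was given to the mice of both groups, and the cells were not cultured. The Cre driver, the age of the mice and the number of mice behind each sample are not stated in the labels. The p-values below set the difference between groups against the spread between these samples only, which may be technical. The comparison asks how loss of the receptor in fibroblasts bears on the ribosomal protein mRNAs of the day 7 infarct. Samples carry the numbers of their labels, 1 to 4 for FTbR2KO and 5 to 8 for TbR2fl/fl.

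A ribosome consists of a small subunit, which binds the mRNA and reads its codons, and a large subunit, which joins the amino acids and releases the growing chain through a tunnel. Nearly every ribosomal protein is present once per ribosome, and the mRNAs of these genes are short, abundant and commonly begin with a cytosine and a run of pyrimidines, the 5′ terminal oligopyrimidine tract through which mTORC1 and the RNA-binding protein LARP1 control their translation. Ribosomal protein mRNAs are abundant in nearly all cells, and infarct fibroblasts are known for secreting matrix proteins. These genes also have many processed pseudogenes, whose sequences can take or receive their reads.

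The promoters of these genes held several sequence features more often than those of all genes did. The selection by name did not use these features. RefSeq windows on GRCm38.p6, from 250 bases before to 50 bases after the annotated start, were found for 66 of the 86 genes and gave 78 windows, against 32851 windows for all genes. A C at the start followed directly by 4 or more pyrimidines stood in 17.9% of the ribosomal protein windows and in 2.51% of all windows. The stretches of 15 bases on either side of the start are given for 6 genes, with the start C and the pyrimidines that follow it in capitals. These stretches carry the start of the pyrimidine tract. The 6 were taken from the low end of the fold changes described further on. Their log2 fold changes were -0.37 to -0.26, while the 14 tested genes with this feature reached up to -0.06.
Rplp2, chr7:141447636-141447665, plus strand: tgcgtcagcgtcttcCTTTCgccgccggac
Rps18, chr17:33955651-33955680, minus strand: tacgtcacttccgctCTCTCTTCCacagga
Rpl35a, chr16:33056467-33056496, plus strand: gcggggcttgccttcCTCTTTCCgccatct
Rps21, chr2:180257364-180257393, plus strand: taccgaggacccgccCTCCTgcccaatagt
Rpl15, chr14:18270972-18271001, minus strand: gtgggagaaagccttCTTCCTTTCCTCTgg
Rpl28, chr7:4792950-4792979, plus strand: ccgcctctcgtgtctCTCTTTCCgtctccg

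A run of 8 or more pyrimidines between 10 bases before and 16 bases after the start, which can overlap the previous feature, was present in 30.8% of the ribosomal protein windows and in 9.86% of all windows. The core of ETS factor sites, CGGAAG on either strand, was present in 60.3% of the ribosomal protein windows and in 16.9% of all windows. The longer CCGGAAGT, which contains it, was found in 15.4% and 3.89%. GGGCGG, the core of SP1 sites, was found on either strand in 60.3% and 35.7%, AAGATGGC, the core of YY1 sites, in 10.3% and 2.75%, and the TATAAA box in 8.97% and 13.6%. These matches describe letters in the windows and are not measured binding. The upstream stretches of Rpl7a and Rps16 are shown because each has the lowest fold change of its subunit among genes that hold CGGAAG or its reverse complement CTTCCG upstream of the start. Capitals mark that match, and the stretch ends before the first annotated base of the gene in the deposited table.
Rpl7a, chr2:26910557-26910763, plus strand: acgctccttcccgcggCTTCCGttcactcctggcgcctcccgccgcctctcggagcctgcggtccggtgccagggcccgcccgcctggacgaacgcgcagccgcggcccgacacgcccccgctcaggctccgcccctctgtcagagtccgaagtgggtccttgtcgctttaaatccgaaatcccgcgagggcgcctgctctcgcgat
Rps16, chr7:28350439-28350651, plus strand: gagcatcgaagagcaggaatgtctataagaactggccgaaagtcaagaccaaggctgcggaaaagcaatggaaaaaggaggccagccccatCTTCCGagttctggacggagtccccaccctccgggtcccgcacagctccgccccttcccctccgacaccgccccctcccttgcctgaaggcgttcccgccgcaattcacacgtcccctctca

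The fold changes between the groups described further on had near medians with and without these features. The median log2 fold change was -0.25 over the 14 tested genes with a start C and pyrimidines and -0.19 over the 47 with a matched window that lacked it. It was -0.19 over the 41 tested genes with CGGAAG and -0.22 over the 20 without. The ranges overlapped and reached from -0.37 to -0.06 with the start feature and from -0.87 to 0.05 without it.

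Reads recovered from the values were 16.1, 17.7, 19.6 and 22.9 M in FTbR2KO 1 to 4, with 27.7, 28.6, 21.2 and 28.7 M in TbR2fl/fl 5 to 8. Tgfbr2 itself went against the label: its FPKM (sequenced fragments divided by gene length in kilobases and by library depth) was 60.0, 58.1, 56.9 and 57.8 in the libraries labelled FTbR2KO and 49.6, 40.3, 46.7 and 45.4 in the controls, higher in all 4 of the former, with a log2 fold change of 0.35 and an adjusted p of 0.571 in limma. A value for the whole gene does not show whether an exon was deleted. Fibroblast markers were all expressed, their FPKM summing to 11075 to 13455 in the former group and to 12938 to 14486 in controls. Macrophage markers summed to 8.39 to 12.9 in the former and 10.4 to 13.1 in controls, and endothelial markers to 19.7 to 26.0 and 18.6 to 28.6. Most of the endothelial sum was Tek, at 16.7 to 23.3 FPKM in the former and 15.1 to 26.8 in controls. Of the 8 endothelial markers, 5 stayed under 1 FPKM in all libraries, and none but Tek exceeded 1.17. Pericyte and smooth muscle markers summed to 48.09 to 75.96 in the former and 49.54 to 65.93 in controls. Cardiomyocyte markers summed to 3.16 to 5.88 and 4.18 to 5.26, and erythroid markers to 3.77 to 11.2 and 3.56 to 43.6. Epicardial and mesothelial markers varied widely, summing to 38.7, 12.5, 25.1 and 4.09 in FTbR2KO 1 to 4 and to 24.3, 10.7, 0.694 and 15.2 in TbR2fl/fl 5 to 8, so that FTbR2KO 1 and TbR2fl/fl 5 were the highest of their groups. Proliferation markers summed to 7.56, 22.8, 9.24 and 16.2, and to 7.07, 15.6, 7.07 and 16.5. Mitochondrially encoded genes took 0.835% of reads in TbR2fl/fl 5 and 1.09 to 1.23% in the others. The part of these differences in the levels described next was not tested. Ptprc, the pan-leukocyte marker, reached at most 0.0346 FPKM in any library. By limma's array weights, in which a low weight marks a library far from its group, TbR2fl/fl 5 and FTbR2KO 1 stood apart, at 0.381 and 0.550, against 0.885 to 2.96 in the other 6 libraries. In sorted cells measured in bulk, fewer cells of a kind and less RNA per cell cannot be told apart.

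No ribosomal protein gene passed the test, and nearly all of them had slightly lower levels in the libraries labelled FTbR2KO. Of the 86 genes, 80 reached 1 FPKM in 4 or more of the 8 libraries and were tested, 46 of the large and 34 of the small subunit. In limma on log2(FPKM + 1), 0 of the 80 reached an adjusted p of 0.05 and the lowest adjusted p was 0.571, where 2 of all 11667 tested genes, Gpt2 and Prm1, or 0.0171%, passed. At the adjusted threshold 0.0% of all genes were lower and 0.0171% were higher. The fold changes lay below 0 for 78 of the 80, 45 of 46 in the large and 33 of 34 in the small subunit, against 51.2% of all tested genes. The median log2 fold change was -0.20 for the large subunit and -0.23 for the small subunit, with a median of -0.0045 over all tested genes. On a TPM scale, which lifts the median of all genes to 0.15, the medians were -0.03 and -0.07, 54 of 83 lay below 0, and relative to all genes the difference was -0.17 and -0.21. At an unadjusted p below 0.05, 22 of the 80 were lower and 0 were higher in limma, where 4.87% of all tested genes were lower and 3.74% were higher. On the TPM scale 3 of 83 were lower at that level, and 80 of 83 lay below the median of all genes. Of all 14581 genes tested on that scale, 1627 were below that p in either direction and 22.2% had a fold change below 0. The 1627 hold lower and higher genes together, so they are not the background for the 3 of 83. The 22 on the FPKM scale comprised 14 genes of the large and 8 of the small subunit.

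**Figure D1:**
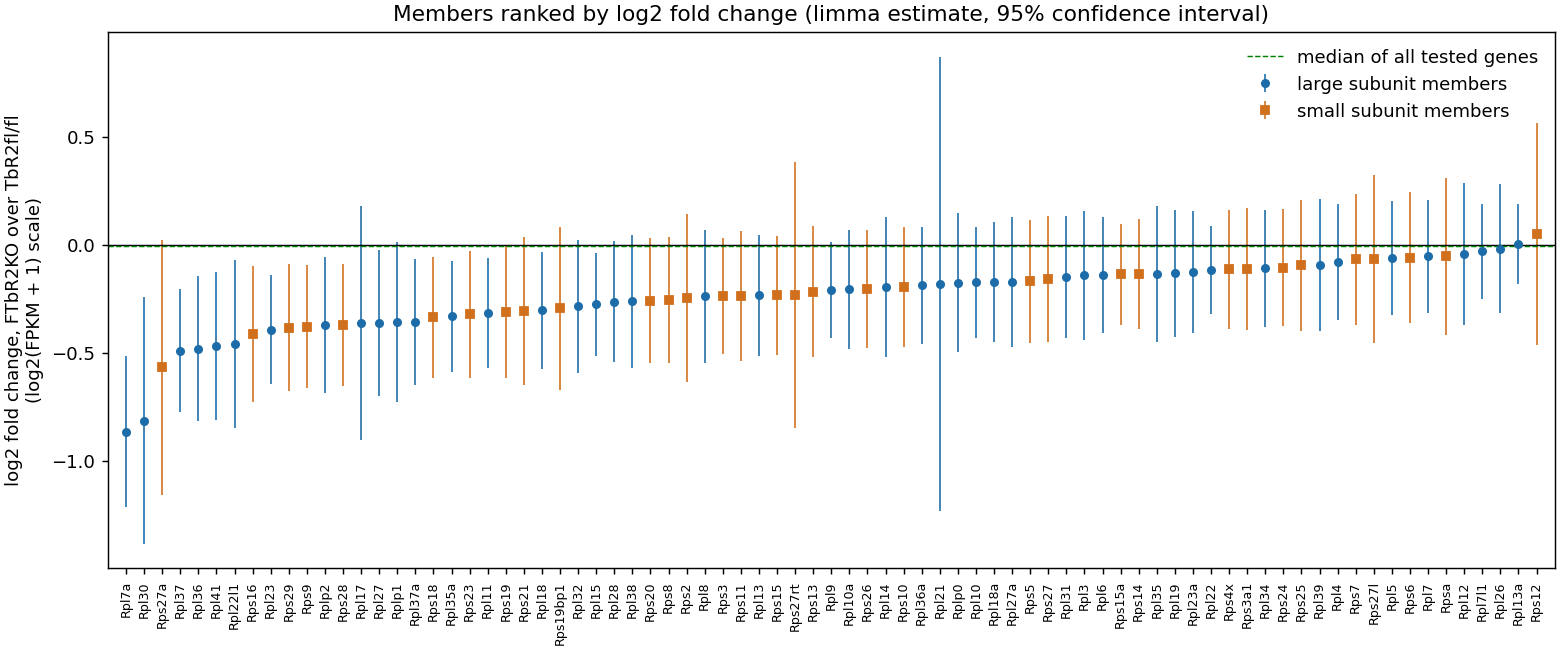
Log2 fold change (libraries labelled FTbR2KO against TbR2fl/fl, vertical axis) of 79 of the 80 tested ribosomal protein genes, ordered by value and coloured by subunit, with 95% intervals from limma as bars. Rpl7a lies lowest at -0.87 and Rps12 highest at 0.05, and 77 of the 79 points are below 0.

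Both subunits varied together across libraries, and the size of the difference between groups depended on single libraries. The mean log2(FPKM + 1) of the tested large subunit genes was 6.72, 6.81, 6.95 and 6.90 in FTbR2KO 1 to 4 and 6.84, 7.26, 7.08 and 7.19 in TbR2fl/fl 5 to 8. The corresponding means of the small subunit were 6.73, 6.80, 6.97 and 6.92, and 6.82, 7.25, 7.05 and 7.19. The groups overlapped, because TbR2fl/fl 5 lay among the libraries labelled FTbR2KO while the other 3 controls lay above all 4 of them. All 86 genes together took 2.27, 2.21, 2.60 and 2.40% of reads in FTbR2KO 1 to 4 and 2.39, 2.98, 2.55 and 2.88% in TbR2fl/fl 5 to 8, where FTbR2KO 3 also exceeded TbR2fl/fl 7. Large subunit genes had 1.33 to 1.38 times as many reads as small subunit genes in the libraries labelled FTbR2KO and 1.37 to 1.39 times as many in controls. The large subunit reads include those of Rpl29, described below, which was high in FTbR2KO 4 and TbR2fl/fl 8 alone and raises their ratios. TbR2fl/fl 5 was the lowest control for 76 of the 80 tested genes, and FTbR2KO 1 or 2 was the lowest of its group for 72. The highest of the 8 libraries was TbR2fl/fl 6 for 52 genes and TbR2fl/fl 8 for 22, and the lowest was FTbR2KO 1 for 44 and TbR2fl/fl 5 for 20.

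With all 8 libraries, Rpl7a was the 1 gene of the 80 whose 4 values in the libraries labelled FTbR2KO all lay below the 4 controls, where 1.89% of all tested genes did so. None of the 80 lay wholly higher, where 2.52% of all genes did. Without TbR2fl/fl 5, 38 of the 80 lay wholly lower, against 6.99% of all tested genes, which follows in part from its place as the lowest control for most of them, and nothing is read from that count. Without FTbR2KO 4 the count was 18, against 6.69% of all tested genes. Without any 1 of the other 6 libraries it was 1 or 2 of the 80, against 2.42 to 3.39% of all tested genes. The number lower at an unadjusted p below 0.05 also depended on single libraries in both directions. It went from 22 to 48 without TbR2fl/fl 5 (against 7.23% of all tested genes), to 11 without TbR2fl/fl 6, to 11 without TbR2fl/fl 8, to 12 without FTbR2KO 1 and to 13 without FTbR2KO 2. The number of all 11667 tested genes at that level, in either direction, moved as well. It was 1004 with all 8 libraries, 544 without TbR2fl/fl 6, 728 without TbR2fl/fl 8, 851 without FTbR2KO 1 and 491 without FTbR2KO 2. These totals hold lower and higher genes together, so they are not the background for the counts of lower genes. The medians of the large and small subunit were -0.29 and -0.31 without TbR2fl/fl 5 and -0.14 and -0.18 without TbR2fl/fl 6, and 0 of the 80 passed the adjusted threshold without any 1 library. Without both TbR2fl/fl 5 and FTbR2KO 1, the medians were -0.26 and -0.26 and 36 of the 80 were lower at that level, against 5.90% of all genes.

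**Figure D2:**
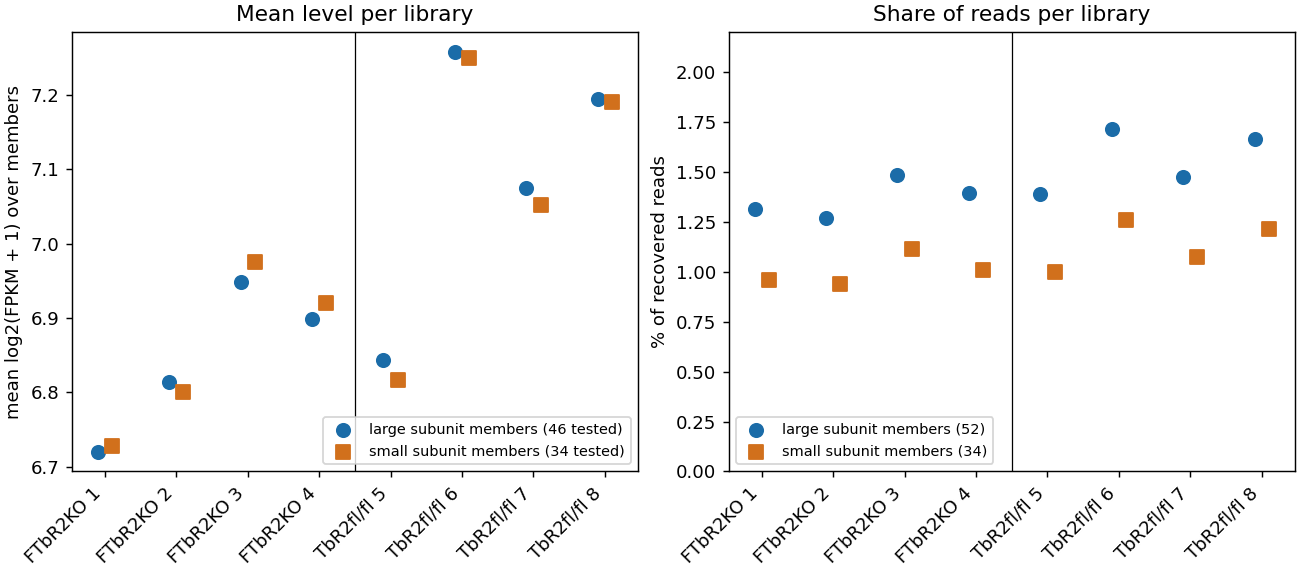
Mean log2(FPKM + 1) of the tested large and small subunit genes (left) and the share of recovered reads, in percent, taken by the 52 large and the 34 small subunit genes (right) in each of the 8 libraries, with a vertical line between the groups. In mean level both subunits are lowest in FTbR2KO 1 and highest in TbR2fl/fl 6, and TbR2fl/fl 5 lies among the libraries labelled FTbR2KO.

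The 3 proteins of the stalk, which recruits the elongation factors to the large subunit, include the most abundant transcripts. Rplp1, an acidic stalk protein, stood at 1225, 1269, 1594 and 1727 FPKM in FTbR2KO 1 to 4 and at 1573, 2068, 1755 and 2019 in TbR2fl/fl 5 to 8. It had the highest mean level of the large subunit genes and the groups overlapped through TbR2fl/fl 5 and FTbR2KO 3 and 4. Its log2 fold change was -0.36 (SE 0.16), with an exact permutation p of 0.0857 and an adjusted p of 0.59 in limma. Rplp2, its partner, lay at 97.3 to 135 FPKM in the libraries labelled FTbR2KO and at 124 to 160 in controls, a log2 fold change of -0.37. Rplp0, the base of the stalk that is often used as a reference gene in quantitative PCR, lay at 648, 699, 827 and 775 FPKM against 694, 942, 790 and 914, a smaller difference of -0.18 (SE 0.14). Rpl12, to which the stalk is anchored, had a fold change of -0.04. All 4 lay below 0, with a median of -0.27.

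Of the large subunit genes with a role in assembly and signalling, RPL5 and RPL11 bind 5S rRNA and, when free, inhibit MDM2, the ligase that degrades p53. Rpl11 lay at 74.2, 82.2, 84.5 and 88.8 FPKM in FTbR2KO 1 to 4 and at 86.4, 114, 101 and 111 in controls, so that only FTbR2KO 4 exceeded the lowest control. Its log2 fold change was -0.31 (SE 0.11, unadjusted limma p 0.0207, adjusted p 0.571). Rpl5, its partner in the same particle, was at 103 to 124 FPKM against 98.0 to 131, with a fold change of -0.06. RPL4, RPL17 and RPL39 line the tunnel for the growing chain, and Rpl4 had a fold change of -0.08, Rpl39 of -0.09 and Rpl17 of -0.36. The 6 genes whose proteins surround the tunnel exit, Rpl19, Rpl22, Rpl23a, Rpl26, Rpl31 and Rpl35, all had values below 0 with a median of -0.13, and Rpl26 was nearest to 0 at -0.02. Rpl3, which lies near the peptidyl transferase centre, had a fold change of -0.14 and Rpl10, which joins the subunit late in its maturation, one of -0.17.

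Large subunit genes with the lowest fold changes were Rpl7a and Rpl30. Rpl7a, at chr 2:26910764-26913318 on the plus strand of the deposited annotation, stood at 39.0, 29.5, 36.7 and 35.6 FPKM in FTbR2KO 1 to 4 and at 50.9, 66.8, 84.4 and 60.6 in TbR2fl/fl 5 to 8. Its mean was 35.2 ± 4.03 (SD, n = 4) against 65.7 ± 14.1 (SD, n = 4). This was a log2 fold change of -0.87 (SE 0.15, 95% interval -1.21 to -0.52), an unadjusted limma p of 3.1e-04 and an adjusted p of 0.571. The exact permutation p was 0.0286, the smallest that 4 against 4 samples allow. In all, 81.2% of the 50-base stretches of its transcripts also occurred in transcripts of other genes, 123 genes of which 113 were pseudogenes, so reads of Rpl7a may be split among copies and its value is uncertain. Rpl30 stood at 20.5, 48.6, 29.4 and 26.0 FPKM against 55.5, 63.4, 58.6 and 37.4, with FTbR2KO 2 above TbR2fl/fl 8, a log2 fold change of -0.81 (SE 0.25) and 72.8% of stretches shared.

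Other large subunit genes with low unadjusted p had groups that overlapped. Rpl37, a zinc-binding protein, stood at 55.04, 57.1, 57.9 and 76.5 FPKM against 74.9, 90.5, 88.4 and 92.1, where FTbR2KO 4 alone exceeded TbR2fl/fl 5. Its log2 fold change was -0.49 (SE 0.13), the unadjusted limma p 0.0035 and the adjusted p 0.571. Rpl23 stood at 115, 105, 113 and 135 FPKM against 134, 164, 157 and 162 and had a fold change of -0.39. Rpl36 had one of -0.48, and Rpl41, which encodes the shortest ribosomal protein, one of -0.47 with 293 to 419 FPKM against 407 to 542. In each of these 4 genes FTbR2KO 4 was the only library of its group above TbR2fl/fl 5.

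In the small subunit, RPS2, RPS3, RPS15 and RPS23 lie at the decoding centre and the mRNA entry, and all 4 of their genes had values below 0 with a median of -0.24. Rps3 stood at 89.3, 95.1, 108.6 and 103.9 FPKM in FTbR2KO 1 to 4 and at 97.4, 129.4, 115.7 and 127.8 in TbR2fl/fl 5 to 8. It shared 2.82% of its stretches with other genes and followed the mean of the other ribosomal protein genes with r = 0.996 over the 8 libraries, and its groups overlapped only through TbR2fl/fl 5. Its log2 fold change was -0.24 (SE 0.12), with an adjusted p of 0.599 in limma. RPSA, RPS26 and RPS28 lie at the mRNA exit. Their genes had fold changes of -0.05, -0.21 and -0.37, and Rps28 stood at 48.0 to 61.7 FPKM against 57.7 to 78.0.

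Small subunit genes with low unadjusted p included Rps9, Rps28, Rps16, Rps29 and Rps18, with fold changes between -0.41 and -0.34 and adjusted p of 0.571 in limma. Rps16, a protein that reaches toward the peptidyl site with its tail, stood at 194, 196, 227 and 258 FPKM against 241, 327, 283 and 314, with FTbR2KO 4 above TbR2fl/fl 5. Its log2 fold change was -0.41 (SE 0.14, 95% interval -0.73 to -0.10). Rps9 stood at 144, 139, 169 and 182 FPKM against 177, 227, 204 and 215, and again FTbR2KO 4 was the only library of its group above TbR2fl/fl 5. Rps27a encodes RPS27A fused to ubiquitin and stood at 30.4, 32.1, 33.6 and 39.3 FPKM against 37.4, 92.9, 37.2 and 49.9. Its log2 fold change of -0.57 was the lowest of the small subunit, and 1 control, TbR2fl/fl 6, was far above the other 3.

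Other small subunit genes had fold changes near 0. Rps6, whose protein is the best known substrate of the S6 kinases downstream of mTORC1, stood at 275, 307, 355 and 276 FPKM against 264, 354, 306 and 341, a log2 fold change of -0.06 with a 95% interval from -0.36 to 0.25. Rps4x, on the X chromosome, had a fold change of -0.11 and Rps27 one of -0.16. Rps3a1 had the highest mean level of the small subunit, at 577 to 686 FPKM against 561 to 724, and a fold change of -0.11. Rps12 had the highest fold change of all tested genes of the set, 0.05 (95% interval -0.46 to 0.57), from 112, 114, 135 and 77.0 FPKM against 71.9, 113, 98.6 and 144, an order of libraries unlike that of most other genes. Rpl13a, another common reference gene, was the only other gene above 0, at 0.0024, with 8.42 to 9.94 FPKM against 8.57 to 10.03.

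**Figure D3:**
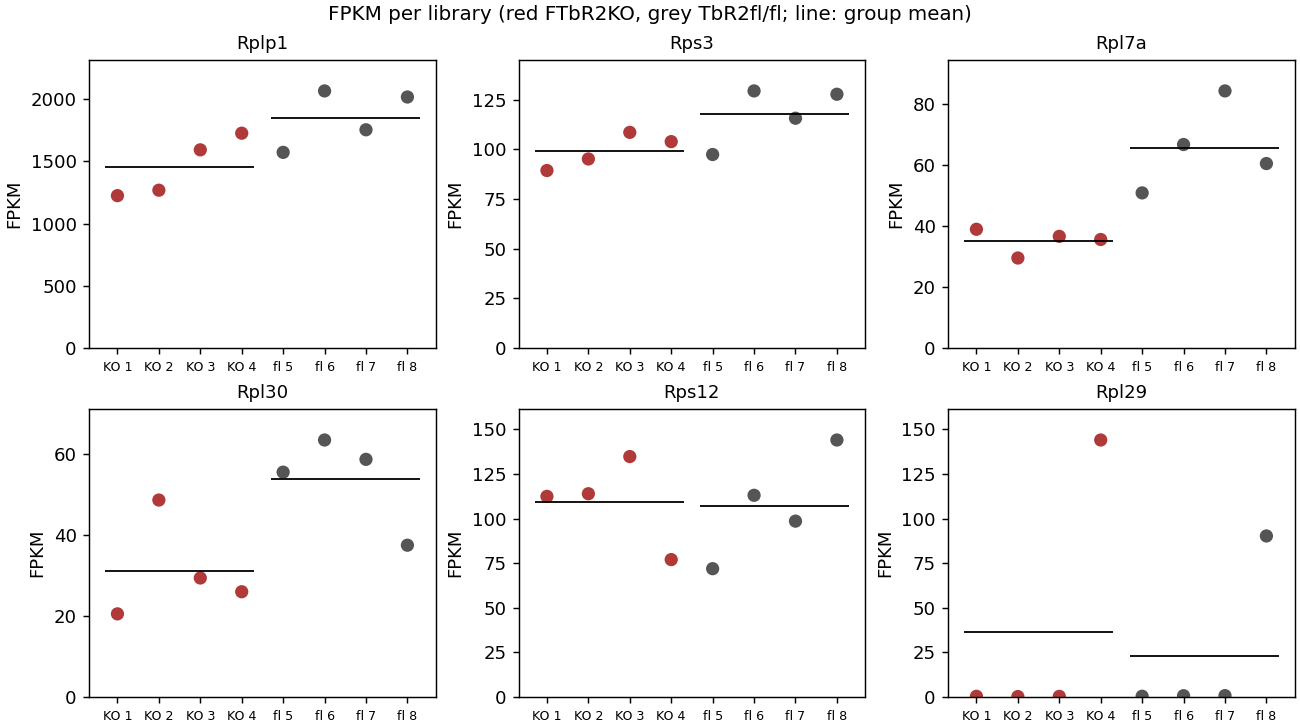
FPKM in each library for Rplp1, Rps3, Rpl7a, Rpl30, Rps12 and Rpl29, with points for the 4 libraries labelled FTbR2KO and the 4 controls and a bar at each group's mean. The groups separate for Rpl7a and overlap for the other 5 genes, and Rpl29 is high in FTbR2KO 4 and TbR2fl/fl 8 alone.

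Of 10 genes mutated in Diamond-Blackfan anaemia, an inherited failure of red cell formation, all 10 had values below 0 with a median of -0.20, and 4 were lower at an unadjusted p below 0.05, beside 78 and 22 of all 80 tested ribosomal protein genes and 51.2% and 4.87% of all tested genes. Rps19, the first of these disease genes to be found, stood at 49.3, 49.4, 61.9 and 66.9 FPKM against 59.9, 78.8, 66.6 and 77.2, a log2 fold change of -0.31 (SE 0.14). Among the paralogues, Rpl22l1, whose protein can replace RPL22, had a fold change of -0.46 with 11.4 to 19.9 FPKM against 16.3 to 24.6, while Rpl22 itself had one of -0.12. Rpl7l1 had a fold change of -0.03, and Rps27l, a p53 target, one of -0.07. Rpl36al was at 0.226 to 0.941 FPKM in all libraries, Rpl39l at 0 to 0.421 and the muscle paralogue Rpl3l at 0 to 0.0701, and Rpl10l was listed at 0 in all 8. Rpl24 lay between 0.142 and 1.22 FPKM, with 81.7% of its stretches shared. Together with Rpl29 these 5 genes are the 6 that were not tested.

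The tested genes followed each other closely. The correlation of each gene's log2 level with the mean of the other tested ribosomal protein genes over the 8 libraries had a median of 0.90 and was at least 0.8 for 61 of 80. These correlations describe 8 shared libraries and take up the differences between libraries described above. The median fold change was -0.24 over those 61 genes and -0.07 over the other 19. Below 0.5 were Rpl30, Rpl17, Rpl21, Rpl13a, Rps12 and Rps27rt, and the lowest was Rps27rt, the retrogene copy of Rps27, at -0.06, with 91.1% of its stretches shared. At least 1 shared 50-base stretch was found for 82 of the 86 genes, and the median share was 35.8%. The 28 tested genes with at least 50% shared had a median fold change of -0.22 and the 52 with less had -0.21.

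**Figure D4:**
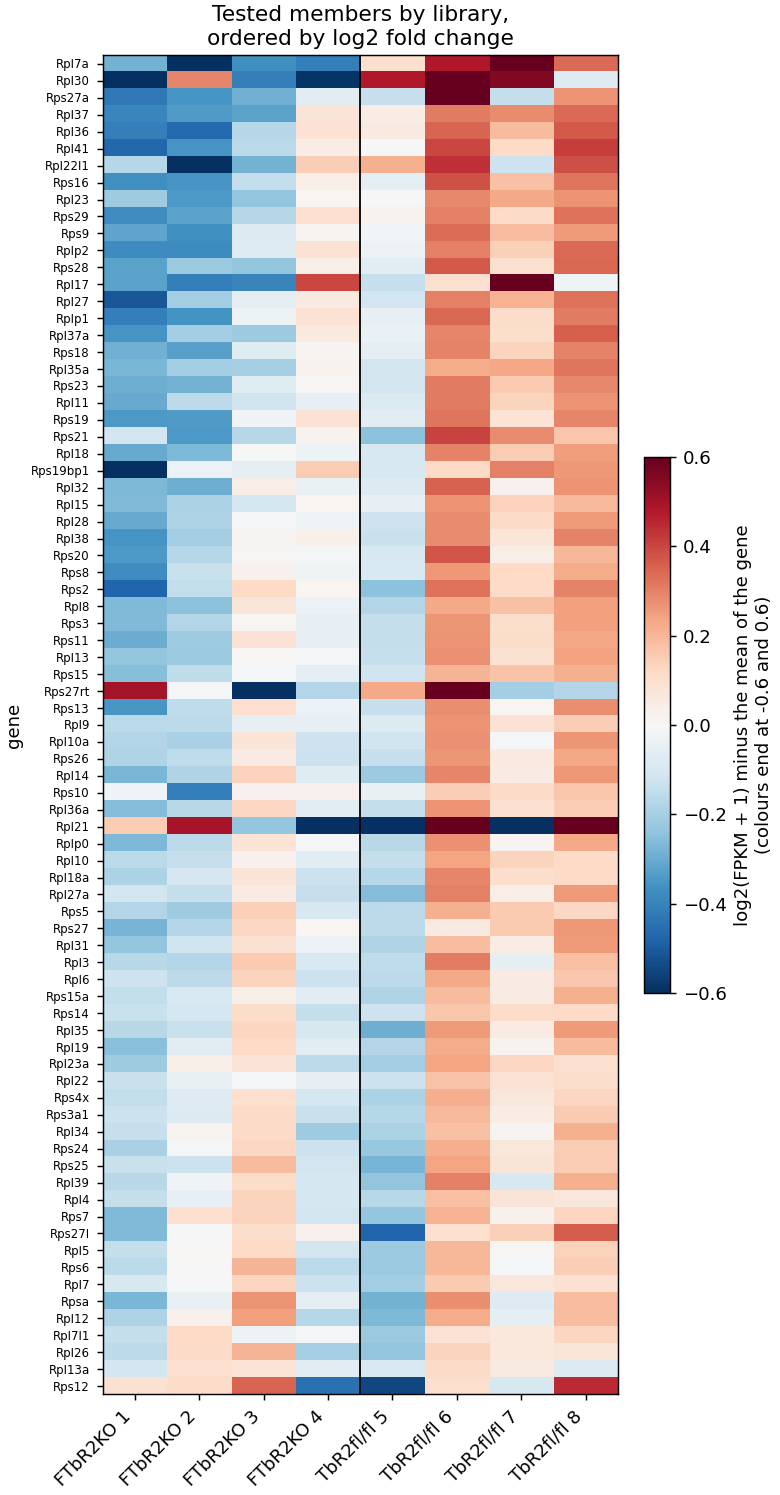
Log2(FPKM + 1) of 79 of the 80 tested ribosomal protein genes in each of the 8 libraries, relative to the gene's mean over all libraries. FTbR2KO 1 and 2 and TbR2fl/fl 5 are mostly low and TbR2fl/fl 6 and 8 mostly high in both subunits.

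Short genes as a whole had lower values in the libraries labelled FTbR2KO, and the tested ribosomal protein genes are short, with a median length of 1776 bases that falls in the second shortest of 8 equal parts of all tested genes. Over these eighths by length, the median log2 fold change went from -0.12 in the shortest eighth to 0.09 in the longest. The genes that the reads fell in also differed in length between libraries: the median gene length over reads was 5625, 5825, 5551 and 5628 bases in FTbR2KO 1 to 4 and 5838, 5317, 5203 and 5409 in TbR2fl/fl 5 to 8, so that TbR2fl/fl 5, the lowest control for most ribosomal protein genes, had the longest. Among tested genes of the shortest eighth, the 24 ribosomal protein genes had a median of -0.27 and the others one of -0.12. In the next eighths the medians were -0.19 for 28 ribosomal protein genes against -0.08, -0.21 for 17 against -0.05 and -0.18 for 7 against -0.02. After a loess correction for length, the median was -0.15 in both subunits and 75 of the 80 lay below 0. With a correction for length and GC content, added after the data were seen, the medians were -0.16 and -0.16 and 75 of 80 lay below 0. At an unadjusted limma p below 0.05, 22 of the 80 were lower after the length correction, against 3.71% of all genes. The part of RNA length or quality in the difference between groups was not tested beyond these corrections.

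**Figure D5:**
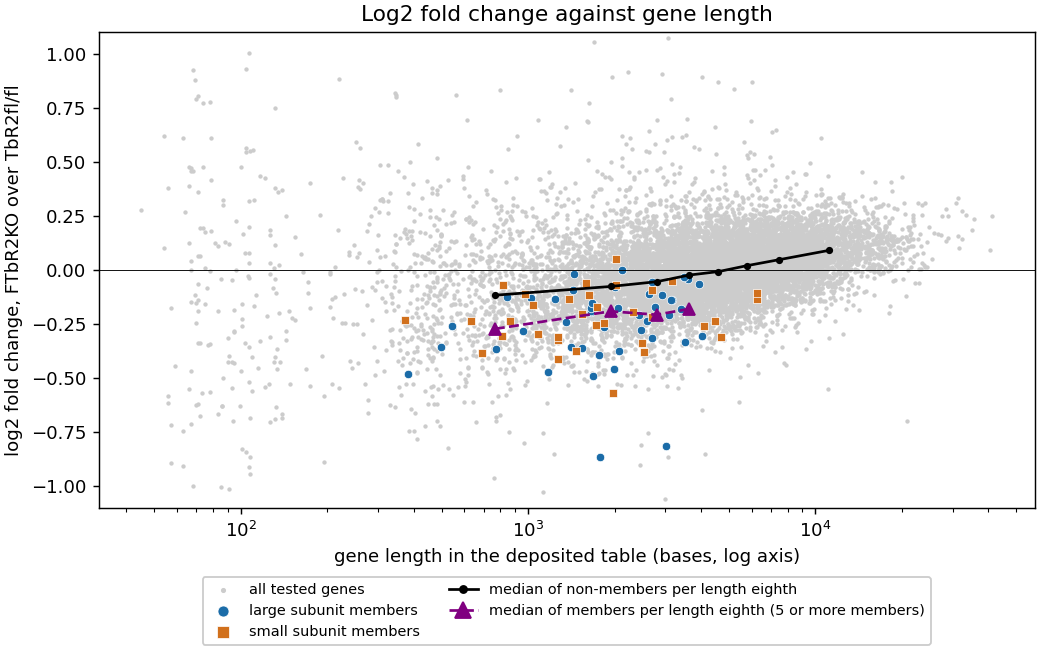
Log2 fold change against gene length in bases on a log axis for all tested genes (grey) and the large and small subunit genes (coloured), with medians per length eighth. In the shortest eighth the ribosomal protein genes have a median of -0.27 and the others one of -0.12, and 17 genes outside the range of -1.1 to 1.1 are not drawn.

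Other genes of translation are given for comparison, and none of them passed the adjusted threshold. Over all tested genes 51.2% lay below 0, and 4.87% were lower and 3.74% higher at an unadjusted p below 0.05. Of ribosomal proteins whose genes are named otherwise, Fau had a fold change of -0.19 and Rack1 one of -0.12. Of 77 tested mitochondrial ribosomal protein genes, 63 lay below 0, with a median of -0.10, and 12 were lower and 0 higher at an unadjusted p below 0.05, led by Mrpl41 (-0.31) and Mrpl14 (-0.39). Of 24 elongation factors and other mRNAs with pyrimidine tracts, 20 lay below 0, with a median of -0.10, and 0 reached that level in either direction, Eef1d (-0.19) and Eif3k (-0.16) coming nearest. Ribosome biogenesis factors were divided, with 28 of 57 below 0, a median of 0.01, and Polr1c, a subunit of RNA polymerases I and III, at -0.25 and Utp20, a processing factor, at 0.27. Initiation factors were divided as well, with 15 of 30 below 0 and a median of -0.0029, from Eif3g at -0.28 to Eif4g3 at 0.21 for the pair with the smallest p. Of 29 genes of mTORC1 and the S6 kinases, 18 lay below 0, with a median of -0.04, 4 lower and 3 higher at an unadjusted p below 0.05. Ddit4, an inhibitor of mTORC1, had a fold change of -0.54, and Lamtor4, a part of its lysosomal anchor, one of -0.33. Nuclear genes of oxidative phosphorylation were short like the ribosomal protein genes but less abundant, with a median of 21.5 FPKM against 139. Of the 76 tested, 72 lay below 0, with a median of -0.20. At an unadjusted p below 0.05, 16 were lower and 0 higher, with Ndufa2 at -0.54 and Cox7a2l at -0.29. After the length correction the median of these 76 genes was -0.14, beside -0.15 for either ribosomal subunit.

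Rpl29 stood apart from every other gene of the set, in both groups alike. It was named after its values were seen. Rpl29, at chr 9:106429454-106431568 on the plus strand, was listed at 0.358, 0.204, 0.315 and 144 FPKM in FTbR2KO 1 to 4 and at 0.393, 0.691, 0.738 and 90.3 in TbR2fl/fl 5 to 8, with 3706 reads in FTbR2KO 4 and 2893 in TbR2fl/fl 8. Thus 1 library of each group was high and the other 6 were below 1 FPKM. Of the rows at 1 FPKM or more in both of these libraries, 7 were more than 10-fold higher in both than in all 6 others. Rows at lower levels were not searched. Of these, 5 lie on the Y chromosome, Ddx3y, Eif2s3y, Gm4017, Uty and Kdm5d, and the other two are Rpl29 and Gm10709, a processed pseudogene at chr 9:7751725-7752204 that holds 273 of the 1289 50-base stretches of Rpl29. Xist was at 0.056 and 0.022 FPKM in these 2 libraries and at 30.7 to 49.7 in the others. The relation of Rpl29 to the sex of the mice was not tested.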

How the data were processed

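RNA sequencing of 8 samples, 4 labelled FTbR2KO and 4 TbR2fl/fl, was analysed from 1 gene table. The values are gene-level FPKM made by the authors and used as deposited. Per the submitters' processing notes, the tools included HTSeq 0.6.1, Cufflinks 2.1.1, TopHat2 2.0 and CASAVA and the builds GRCm38.p6 and mm10, whose roles are not stated there. The sources used here do not give strand use, so overlapping and antisense genes cannot be told apart. In every library the products of FPKM and gene length were whole multiples of 1 step (100% of nonzero values, tolerance 0.01), which gave 16.1 to 28.7 M recovered reads per library. These reads were used for depth, for shares, ratios and counts of reads, for gene length over reads and for the simulated data. The comparison of the groups did not use them.

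Genes with FPKM of 1 or more in 4 or more samples, 11667 in all, were compared on log2(FPKM + 1), a scale that understates changes of low genes, with limma 3.58.1 (R 4.3.3, trended empirical Bayes, no covariate, two-sided, Benjamini-Hochberg over all 11667, threshold 0.05). Fold changes are on that scale. For single values the two-sided exact permutation test ran over all 70 splits, whose smallest p is 0.0286. Lists are described by counts and medians only. Shared sequence was counted as 50-base stretches of GENCODE M21 transcripts found in other genes. Promoters came from RefSeq on GRCm38.p6. The limma fit was run on simulated data in which single genes changed independently and by more than the medians above. Those data held neither a trend with gene length nor a shift shared by many genes of a library. The members, gene lists and naming rule were chosen with earlier results of these data known. The text names key members of each role whatever their values, the 6 with the smallest p, the extremes of level and the 3 highest fold changes in each subunit, and 2 genes of each other list. Rpl17, Rpl21, Rpl24, Rpl29 and Rps27rt were named after their values were seen. Some genes that this rule names are not reported here.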

Additional observations from a re-analysis of the deposited data

Results flagged for a closer look

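In 102 groups of 4 libraries the highest or lowest value was compared with the others by Dixon's test. Chance marks about 1 in 20 groups chosen without regard to their values. Rpl29 and Rpl17 were named after their values were seen, so nothing is read from the number marked. Marked were 7 values. Rpl29 was at 144 FPKM in FTbR2KO 4, against 0.204 to 0.358 in the other 3 libraries of its group, and at 90.3 in TbR2fl/fl 8, against 0.393 to 0.738. Rpl17, which lines the peptide tunnel, was at 114 FPKM in FTbR2KO 4, against 64.7 to 68.8. Rpl37 was at 76.5 FPKM in FTbR2KO 4, against 55.04 to 57.9. Rps10, of the small subunit's beak, was at 0.672 FPKM in FTbR2KO 2, against 1.20 to 1.27. The paralogue Rpl36al was at 0.823 FPKM in FTbR2KO 3, against 0.255 to 0.298. Rpl3l was at 0.0701 FPKM in FTbR2KO 1, from 2 reads, and listed at 0 in the other 3.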

How the results depend on the processing

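No ribosomal protein gene passed the adjusted threshold under any of the alternatives given here. The number of all genes called was 2, was 1 with an FPKM minimum of 5, and ranged from 2 to 8 when 1 library at a time was left out, with 8 without FTbR2KO 4, of which 6 were higher and 2 lower. Leaving out 1 library at a time moved the median of the large subunit between -0.29 and -0.14 and that of the small subunit between -0.31 and -0.17. On the TPM scale the medians were -0.028 and -0.068, where all genes had a median of 0.15. Quantile normalization gave -0.13 and -0.18 and array weights -0.29 and -0.28. With a term for sex read from Xist, added after the data were seen, 3 genes and 0 members were called and 23 members were lower at an unadjusted p below 0.05. In that fit 1095 of all 11667 genes were below that p in either direction. The number of members lower at an unadjusted p below 0.05 ran from 3 (TPM) to 48 (without TbR2fl/fl 5). All genes at that level in either direction numbered 1627 of 14581 on the TPM scale and 1476 of 11667 without TbR2fl/fl 5. These totals and the 1095 hold lower and higher genes together, so they are not the background for the members that were lower. Of 1081 values of single genes under an alternative, 1036 kept their direction and 45 reversed, and none crossed the threshold. TPM, under which all genes shift upward and 80 of 83 members stay below the median of all genes, gave values above 0 for Rps3a1 (0.056), Rpl4 (0.088), Rps4x (0.054), Rps6 (0.11), Rpsa (0.11), Rpl26 (0.15), Rpl3 (0.026), Rps27 (0.0073), Rpl5 (0.10), Rpl39 (0.074), Rpl22 (0.049), Rps27l (0.099), Eif3k (0.0023) and Rpl7l1 (0.13). Array weights reversed Rps12 (-0.044) and Rpl13a (-0.017). The length correction reversed Rps6 (0.023), Rpl26 (0.068) and Rps27l (0.034), that for length and GC Rps6 (0.088) and Rpl26 (0.11), and quantile normalization Rps6 (0.0060), Rpl26 (0.067) and Rpl5 (0.0048). Without both FTbR2KO 1 and TbR2fl/fl 5, Rps12 was at -0.15. With 1 library left out at a time, the ranges that crossed 0 were -0.16 to 0.031 for Rpsa, -0.10 to 0.045 for Rpl26, -0.12 to 0.21 for Rps12, -0.24 to 0.043 for Rps27l, -0.49 to 0.15 for Rpl21, -0.11 to 0.012 for Rpl7l1 and -0.031 to 0.041 for Rpl13a. A planned count model on recovered reads is left out, since the deposited values are FPKM and not counts. The cause of these reversals was not tested. No paired analysis was made, since the samples are numbered 1 to 4 in one group and 5 to 8 in the other. The longer numbers in their titles run close across the groups, but none is shared and no label states that they mark pairs. With 4 libraries a group, differences near the medians above are within the spread between libraries for single genes, and Rpl3l, Rpl10l and Rpl39l have too few reads for any comparison.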
